A study of Mus musculus with 6 samples.

Results

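The genes described here are 10 naive pluripotency factors of mouse embryonic stem cells (mESCs), Nanog, Esrrb, Klf2, Klf4, Klf5, Tfcp2l1, Tbx3, Prdm14, Nr0b1 and Dppa3. They were taken by symbol as genes of the self-renewal network, a choice made with earlier results of these data known, and are 10 of 43309 genes in the count table. All 10 were among the 16823 genes tested, those that reached 10 counts in 1 or more libraries. The 6 libraries were made from polyA RNA of strain J1 (129SV) mESCs with a stranded mRNA kit, 3 from control clones that were Zbtb24 wild-type (2lox/+) and 3 from clones labelled Zbtb24 knockout (1lox/1lox). Both groups thus carry engineered lox alleles, and the replicates of a group are described as separately derived clonal lines. The cells had been grown on gelatin in medium with serum and without feeder cells. The comparison asks which transcripts differ between clones labelled knockout and control clones, in bulk RNA, where fewer cells of a type and less RNA per cell cannot be told apart.

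A naive mESC resembles the cells of the early epiblast and renews itself through a network of transcription factors that activate each other and keep lineage genes silent. LIF, acting through Stat3, feeds the network largely through Klf4 and Tfcp2l1, Wnt signalling feeds it by relieving Tcf7l1 repression of Esrrb and others, and FGF signalling through Erk drives cells out of it. When cells move towards the formative and primed states, the naive factors fall while Pou5f1 and Sox2 stay on. In serum medium the levels of Nanog, Esrrb, Klf4, Tbx3, Prdm14 and Dppa3 are known to vary from cell to cell, which a bulk library averages.

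The libraries held between 25042261 and 28838924 counts in genes, and the lowest count of any member was 509. Libraries of 1 group differed by 1.12 to 1.60 times sampling noise and libraries of different groups by 18.9 to 20.2 times, so no pair held the same counts. Differences so close to sampling noise cannot show whether libraries of a group came from separate RNA samples. The targeted gene, Zbtb24, which encodes a zinc finger protein, had 510, 512 and 489 counts in control clones 1 to 3 and 888, 925 and 1039 in the clones labelled knockout. That is a log2 fold change of 0.99 (SE 0.05), higher where the label says knockout. A gene count does not show which exons were deleted, so this neither checks the label nor gives a direction of Zbtb24 function, and the groups are named by their labels throughout. The clones of a group were very alike, with a typical coefficient of variation of 2.00% between them, and 69.5% of all genes tested passed the threshold in either direction, 34.4% higher and 35.2% lower in the clones labelled knockout. A member that passes is therefore unremarkable by itself, and the sizes below carry the description.

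The reference promoters of the members the comparison turned on most, from RefSeq on GRCm38.p6, are shown 5′ to 3′ on the gene's strand, from 250 bases before to 50 after the annotated start. They are the gene with the largest fold (Klf4), the next (Tfcp2l1), the most abundant (Nanog) and the one that fell most among the members (Klf2). With the local offset described below, the log2 fold change was 0.0045 for Klf2 and -0.66 for Dppa3. Capitals mark matches, on either strand, to TTTGCAT (the octamer core read by Pou5f1), to CATTGT (read by Sox factors), to AAGGTCA (the element of nuclear receptors such as Esrrb), to CCNCNCCC (the GC-rich site of Klf factors, which also matches G or C runs and overlaps itself), to TTCNNNGAA (read by STAT factors) and to TATAAA (the box bound by the basal machinery at some start sites). The Nanog window is chr6:122707239-122707538 (+), Klf4 is chr4:55532426-55532725 (-), Tfcp2l1 is chr1:118627695-118627994 (+) and Klf2 is chr8:72318812-72319111 (+).
Nanog: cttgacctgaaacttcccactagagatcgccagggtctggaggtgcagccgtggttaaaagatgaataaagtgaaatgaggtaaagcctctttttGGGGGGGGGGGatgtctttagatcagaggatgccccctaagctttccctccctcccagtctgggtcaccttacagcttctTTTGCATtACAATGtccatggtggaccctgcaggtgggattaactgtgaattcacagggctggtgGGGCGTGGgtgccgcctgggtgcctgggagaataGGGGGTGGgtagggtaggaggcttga
Klf4: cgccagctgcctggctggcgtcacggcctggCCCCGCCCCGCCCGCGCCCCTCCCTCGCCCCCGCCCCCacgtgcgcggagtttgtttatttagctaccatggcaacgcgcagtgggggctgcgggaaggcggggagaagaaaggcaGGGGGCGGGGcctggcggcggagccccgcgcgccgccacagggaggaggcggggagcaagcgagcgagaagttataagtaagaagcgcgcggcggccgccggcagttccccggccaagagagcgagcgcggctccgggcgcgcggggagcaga
Tfcp2l1: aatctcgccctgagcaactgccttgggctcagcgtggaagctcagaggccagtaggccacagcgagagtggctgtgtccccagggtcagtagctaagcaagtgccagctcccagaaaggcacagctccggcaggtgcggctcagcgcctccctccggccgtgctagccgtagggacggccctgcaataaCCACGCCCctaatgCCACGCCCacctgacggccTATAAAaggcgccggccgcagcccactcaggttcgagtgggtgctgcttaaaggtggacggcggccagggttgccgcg
Klf2: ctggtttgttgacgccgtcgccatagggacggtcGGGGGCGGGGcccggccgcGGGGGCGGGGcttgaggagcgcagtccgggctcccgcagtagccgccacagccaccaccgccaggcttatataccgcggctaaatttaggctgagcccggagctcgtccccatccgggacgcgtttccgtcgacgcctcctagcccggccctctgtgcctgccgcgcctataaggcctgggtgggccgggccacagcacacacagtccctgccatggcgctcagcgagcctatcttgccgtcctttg

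In the Nanog window the octamer core, at position -75 from the start, and the SOX match, at -67, lie side by side with 1 base between them. Among the 32851 promoter windows of the table, 4.63% hold the octamer core, 12.6% the SOX letters, 4.72% the nuclear receptor letters, 49.5% the Klf letters, 8.30% the STAT letters and 13.6% the TATA letters. Klf4 and Klf2 hold matches to the Klf letters and to none of the other 5. Tfcp2l1 holds Klf matches at -61 and -47 and a TATA match at -28. Of the 6 members with a window, Esrrb has a STAT match at -178 of its first window, Nr0b1 a TATA match at -32, and none holds the nuclear receptor letters. The Klf4 window has 40 CpG and the Klf2 window 32, against a median of 7 over all windows, while the Nanog window has 4. Klf5, Tbx3, Prdm14 and Dppa3 have no window in the table.

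Klf4 and Tfcp2l1 had the largest rises among the members, and with the local offset described below Klf4 stayed first and Tfcp2l1 came after Tbx3 and Esrrb. Klf4, a zinc finger factor, lies at chr4:55527143-55532466 (mm10 coordinates, from GENCODE M21, as for all genes below). Its level, as counts scaled to the TMM library size (cpm), was 67.9, 67.4 and 67.7 cpm in control clones 1 to 3 and 252, 262 and 245 cpm in the clones labelled knockout. The groups did not overlap, and the values in clones of a group differed little. The fold was 3.74 (log2 fold change 1.90, SE 0.03, adjusted p = 2.95e-44 from the edgeR quasi-likelihood fit, adjusted by Benjamini-Hochberg over all genes tested, as is every adjusted p below unless another test is named), and 198 of 16823 genes had a larger log2 fold change. Tfcp2l1, a Grainyhead-like factor that binds with Esrrb and Nanog at many enhancers, lies at chr1:118627945-118685168. It stood at 151, 148 and 144 cpm in control clones and 440, 435 and 426 cpm in clones labelled knockout. All 3 of the latter were above all 3 of the former, with a log2 fold change of 1.56 (SE 0.03, adjusted p = 4.15e-43).

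The hub factors Nanog and Esrrb doubled or more. With the local offset described below, the log2 fold change was 0.60 for Nanog and 1.16 for Esrrb. Nanog, a homeodomain factor at chr6:122707489-122714633, was the most abundant member per length in both groups. It stood at 426, 420 and 420 cpm in control clones and 918, 918 and 931 cpm in clones labelled knockout, a log2 fold change of 1.13 (SE 0.02, adjusted p = 1.20e-39). Esrrb, an orphan nuclear receptor at chr12:86361117-86521628, stood at 290, 294 and 290 cpm in control clones and 652, 658 and 647 cpm in clones labelled knockout. The SD between clones was 2.21 and 5.34 cpm, and the log2 fold change was 1.16 (SE 0.02, adjusted p = 1.30e-39).

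Tbx3, a T-box factor that acts on Nanog, lies at chr5:119670669-119684724. It stood at 45.9, 47.4 and 48.2 cpm in control clones and 125, 131 and 130.1 cpm in clones labelled knockout, a log2 fold change of 1.45 (SE 0.03, adjusted p = 1.64e-37). Prdm14, which represses FGF receptor and Dnmt3 genes in naive cells, lies at chr1:13113457-13127163. It stood at 21.4, 20.6 and 18.5 cpm in control clones and 53.6, 52.2 and 50.1 cpm in clones labelled knockout. Its log2 fold change was 1.36 (SE 0.05, adjusted p = 8.14e-30), again with no overlap.

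Klf5 and Nr0b1 rose less. Klf5, a Klf factor with targets shared with Klf2 and Klf4, lies at chr14:99298691-99315036 and stood at 70.0, 71.1 and 75.3 cpm in control clones and 98.8, 95.1 and 93.7 cpm in clones labelled knockout (log2 fold change 0.41, SE 0.03, adjusted p = 1.01e-15). Nr0b1 (Dax1), an orphan receptor at chrX:86191764-86195947 that dampens Pou5f1 activity, stood at 65.0, 62.9 and 66.1 cpm against 79.6, 79.9 and 77.1 cpm (log2 fold change 0.28, SE 0.03, adjusted p = 1.28e-10). Both sets of clones were separate for each gene.

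Klf2 and Dppa3 fell slightly. Klf2, a Klf factor whose protein Erk signalling marks for degradation, lies at chr8:72319033-72321656 and stood at 135, 149 and 143 cpm in control clones and 132, 127 and 120 cpm in clones labelled knockout. The groups did not overlap but lay close together at their nearest clones, and the log2 fold change was -0.17 (SE 0.03, adjusted p = 6.15e-06). Dppa3 (Stella), a maternal factor that protects methylated DNA in the zygote, lies at chr6:122626410-122630272 and stood at 41.4, 40.4 and 41.8 cpm against 37.4, 38.8 and 38.1 cpm. Its log2 fold change of -0.11 (SE 0.04) had an adjusted p = 0.0118, and DESeq2's Wald test gave an adjusted p of 0.0526, which does not pass.

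Of the members, 8 were higher and 2 lower, and all 10 had groups that did not overlap. Among all genes tested 71.5% did not overlap, so the separation by itself is close to the background. Of the members that passed, 6 were higher by 2-fold or more and none lower by that much, where 5.21% and 11.8% of all genes tested were. With each gene set against the median of its chromosomal surroundings, 3 members (Klf4, Tbx3 and Esrrb) remained higher by 2-fold or more, where 4.52% of the 16692 genes in that fit were. Among the 7619 genes whose counts averaged 500 or more, the class that holds every member, 78.4% passed in either direction and 1.64% were higher by that fold. The median log2 fold change of the members was 1.15, beside -0.00036 over all genes tested. The exact test of edgeR was also run with the spread between clones set to a coefficient of variation rather than estimated. At 20%, 6 members and 4342 of 16823 genes passed. At 40% these were 3 members (Klf4, Tfcp2l1 and Tbx3) and 1456 genes.

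**Figure D1:**
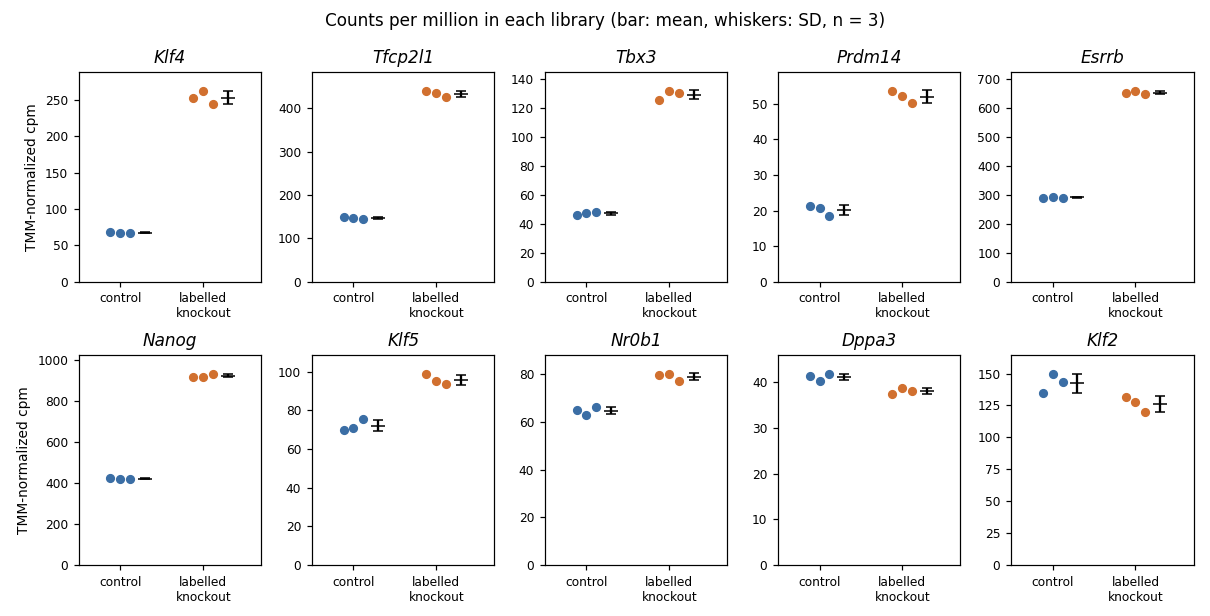
Level of each of the 10 members in cpm (y axis, from 0) in the 3 control clones and the 3 clones labelled knockout, with points for single libraries, and the mean and SD. Klf4, Tfcp2l1, Tbx3, Prdm14, Esrrb and Nanog lie at least 2-fold higher in the clones labelled knockout, Klf5 and Nr0b1 somewhat higher, and Klf2 and Dppa3 slightly lower.

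**Figure D2:**
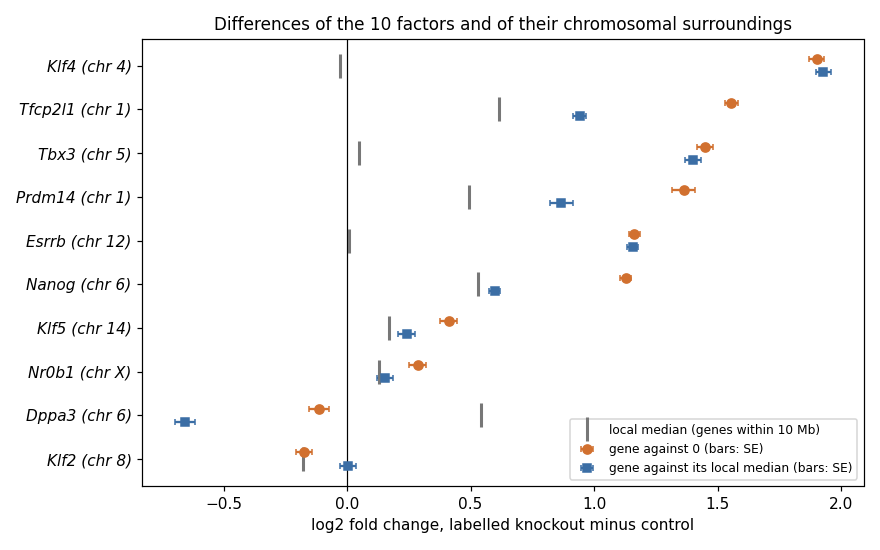
Log2 fold change of each member, clones labelled knockout minus control (circles, bars are SE), beside the same after the local offset (squares) and the local median of genes within 10 Mb (ticks). Klf4 is highest at 1.90, and Klf2 and Dppa3 are the 2 members below 0 before the offset.

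Per length, as FPKM over the longest annotated transcript, the order of the members differed between groups. In control clones it ran from Nanog (190.8 ± 1.61, SD, n = 3) through Klf2 (77.1 ± 4.01), Esrrb (67.7 ± 0.51), Dppa3 (49.5 ± 0.85), Nr0b1 (35.8 ± 0.92), Klf4 (22.3 ± 0.09), Klf5 (21.5 ± 0.84), Tfcp2l1 (15.9 ± 0.33) and Tbx3 (9.47 ± 0.23) to Prdm14 (7.87 ± 0.58). Of neighbours in that order, only Klf4 and Klf5 had overlapping ranges. In the clones labelled knockout the order was Nanog (417.1 ± 3.37), Esrrb (151.7 ± 1.24), Klf4 (83.5 ± 2.89), Klf2 (68.4 ± 3.37), Tfcp2l1 (46.8 ± 0.74), Dppa3 (45.8 ± 0.83), Nr0b1 (43.6 ± 0.85), Klf5 (28.6 ± 0.78), Tbx3 (25.9 ± 0.66) and Prdm14 (20.3 ± 0.68). Of neighbours there, only Tfcp2l1 and Dppa3 overlapped. With the length of all exons in place of the longest transcript, Klf5 fell below Tfcp2l1 and Tbx3 below Prdm14 in control clones, and in the clones labelled knockout Dppa3 fell below Nr0b1, Prdm14 rose above Tbx3 and Klf5 was the lowest member.

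**Figure D3:**
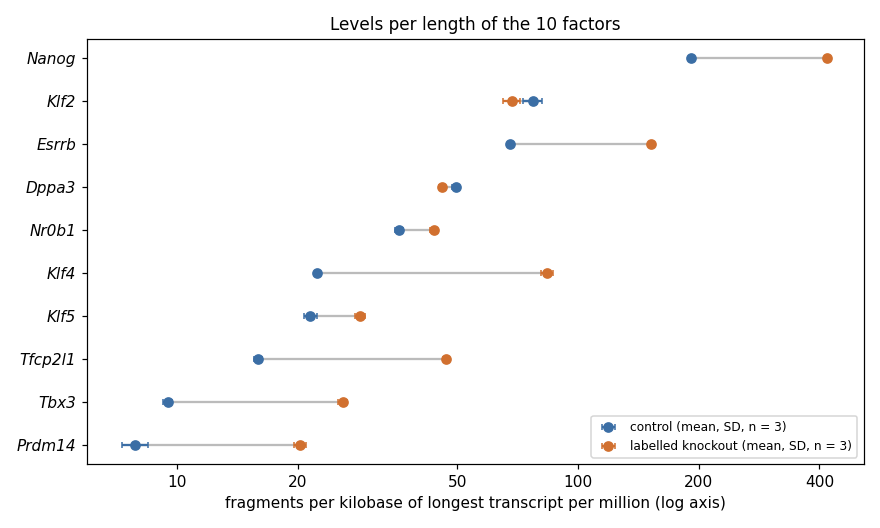
Level per length of the members (FPKM, log axis) in control clones and in clones labelled knockout, as mean and SD of 3 libraries. Klf4 moves from 22.3 to 83.5 FPKM and passes Klf2, which moves from 77.1 to 68.4.

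The ratio of Klf4 to Klf2 per length was 0.307, 0.275 and 0.289 in control clones and 1.17, 1.25 and 1.25 in the clones labelled knockout. Of the Klf members, Klf2 thus had the highest level per length in all 3 control clones and Klf4 in all 3 clones labelled knockout. An exact two-sided permutation test gave p = 0.1, the smallest that 3 against 3 allows. Nanog over Pou5f1 was 0.227 ± 0.00641 in control clones and 0.432 ± 0.00172 in clones labelled knockout (SD, n = 3), and Esrrb over Pou5f1 was 0.0805 ± 0.00115 and 0.157 ± 0.00301. The same permutation test gave p = 0.1 for each of these ratios, which were not offset. With the local offset described below, the log2 fold change was 0.60 for Nanog, 1.16 for Esrrb and 0.21 for Pou5f1.

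Several members lie in surroundings where most genes moved in 1 direction. The median log2 fold change of genes within 10 Mb on either side was 0.61 for Tfcp2l1 (45 genes), 0.53 for Nanog (174), 0.54 for Dppa3 (175) and 0.49 for Prdm14 (69), and it was -0.18 for Klf2 (161). It was near 0 for Klf4 (-0.03, 88 genes), Esrrb (0.01, 131) and Tbx3 (0.05, 236), and it was 0.17 for Klf5 (25) and 0.13 for Nr0b1 (34). On chromosome 1, which holds Tfcp2l1 and Prdm14, the local median was also positive around every other listed gene. Among these were Gbx2 (0.40), Klf7 (0.54) and Lefty1 (0.49). On chromosome 6 the local median was not positive everywhere, at -0.07 around Tcf7l1. Of the genes around Klf4, 0 of 88 had a larger log2 fold change than it, while 14 of 174 around Nanog did. The part of these surroundings in a member's change was not tested, and copy number of the clones was not measured here, so a fold change of a member in a shifted region cannot be told apart from a shift of the region by its count alone.

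With each gene's count offset by its local median, the log2 fold change was 1.93 for Klf4, 1.40 for Tbx3, 1.16 for Esrrb, 0.94 for Tfcp2l1, 0.87 for Prdm14 and 0.60 for Nanog (adjusted p = 9.21e-28). Klf5 stood at 0.24 and Nr0b1 at 0.15 with that offset. Klf2 turned to 0.00 (adjusted p = 0.91) and Dppa3 moved further down, to -0.66, since its local median was 0.54. Of the 175 genes around Dppa3, 149 had a larger log2 fold change than it. The members' median was 0.73 with the offset, and 9 of 10 passed, where 68.7% of all genes in that fit did.

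**Figure D4:**
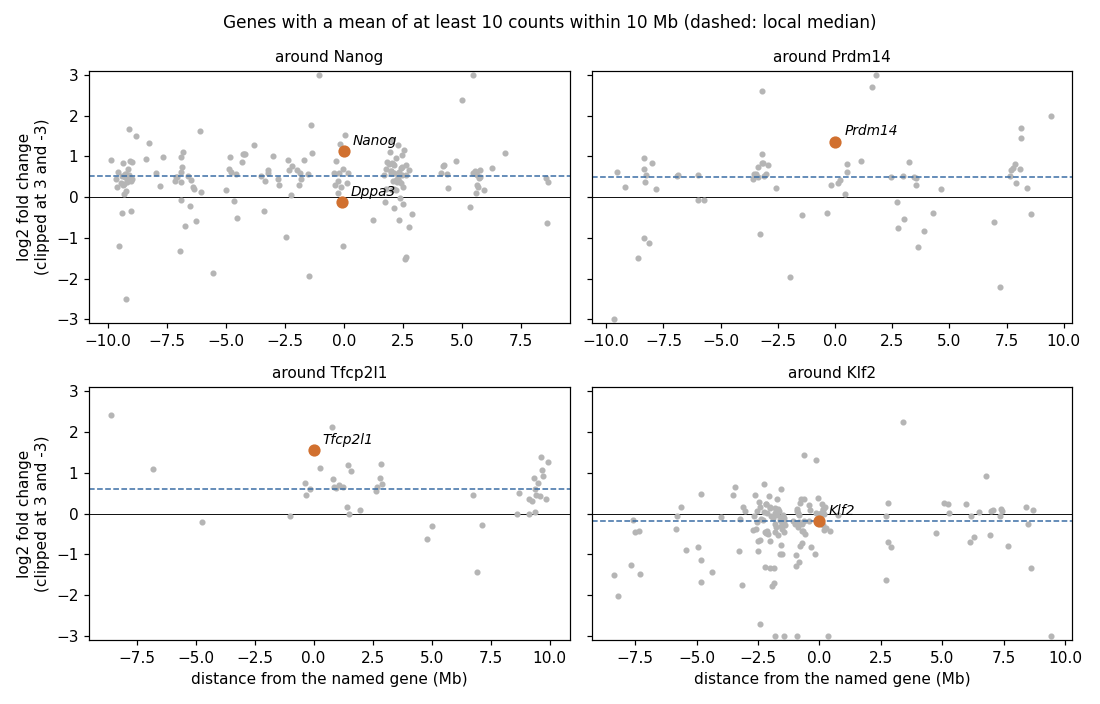
Log2 fold change of genes within 10 Mb (y axis, clipped at 3 and -3) against distance in Mb (x axis) around Nanog with Dppa3, Prdm14, Tfcp2l1 and Klf2, with the local median as a dashed line and the members as large points. The medians are 0.53, 0.49, 0.61 and -0.18, and Klf2 lies on its line.

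Protein-coding neighbours within 100 kb showed changes of several sizes. Slc2a3, which encodes a glucose transporter and lies 13176 bases from Nanog, had 17086, 16343 and 16354 counts in control clones and 47134, 42282 and 47541 in clones labelled knockout (log2 fold change 1.53, SE 0.02), beside 1.13 for Nanog, and with the local offset the values were 1.00 and 0.60. Dppa3 lies 77217 bases from Nanog and moved the other way. Gdf3, a TGF-beta family ligand 16323 bases from Dppa3, had a log2 fold change of 0.25 (SE 0.03), which turned to -0.30 with the offset. Apobec1 did not pass without the offset (-0.12, adjusted p = 0.211) and stood at -0.66 with it. Clasp1, beside Tfcp2l1, stood at 0.60 and did not pass with the offset (-0.02). Ncoa2, beside Prdm14, stood at 0.34 and turned to -0.16 with the offset, while Pibf1, beside Klf5, rose by 0.79, or 0.62 with it. Of the neighbours of Klf2, Fam32a had a log2 fold change of -0.18, which did not pass with the offset (adjusted p = 0.994), and Ap1m1 rose by 0.39, or 0.57 with the offset.

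The other naive-associated genes did not move as one. Of 20, 10 rose, 7 fell and 3 did not pass, with a median log2 fold change of 0.06. Nr5a2, a nuclear receptor that activates Pou5f1, rose by 1.44 (SE 0.03) and Tet2, a methylcytosine dioxygenase, by 1.23 (SE 0.03), and Gbx2, a homeodomain factor of the LIF pathway, by 1.00 (SE 0.05). With the local offset these were 0.97, 1.17 and 0.60. Esrp1, an epithelial splicing regulator, fell by 1.92 on the log2 scale. Zfp42 (Rex1), the usual reporter of naive cells, had 22596, 22354 and 22259 counts in control clones and 12126, 11762 and 13533 in clones labelled knockout, a log2 fold change of -0.77, or -0.35 with the offset, where 8 members rose.

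Core pluripotency genes were expressed in both groups. Of the 10 core genes, 6 rose, 3 fell and 1 did not pass (median 0.17). Pou5f1, the central POU factor, had 31625, 32202 and 31372 counts in control clones and 34095, 32177 and 37653 in clones labelled knockout (log2 fold change 0.20, SE 0.02). Sox2, its partner, rose by 0.43 (SE 0.02), Zfp281 by 0.66 (0.19 with the local offset) and Utf1 by 0.38, and Lin28a fell by 0.44 on the log2 scale. None of the 10 changed by 2-fold.

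Genes of the formative and primed states fell in most cases. Of 16, 12 fell and 4 rose, with a median of -0.56. Dnmt3b, a de novo DNA methyltransferase, stood at 431 cpm in control and 102 cpm in the clones labelled knockout (log2 fold change -2.07, SE 0.03), Pou3f1 (Oct6) had -2.24 and Sall2 -1.46. Fgf5, the marker of the primed epiblast, had 75, 88 and 100 counts in control clones and 4, 3 and 8 in clones labelled knockout, a gene below the count minimum of the naming rule and named after its values were seen. Etv4, an Erk target, rose by 1.27, and Zic2, also named after its values were seen, by 0.96. Like the members and every other list here, it was chosen with results of these data known, so its direction is not independent evidence.

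Among 22 genes of the LIF, FGF and Wnt inputs, 10 rose, 11 fell and 1 did not pass (median -0.05). Socs3, the feedback inhibitor induced by Stat3, rose by 1.20 (SE 0.03). Lif, at 7.47 cpm in control and 2.45 cpm in clones labelled knockout, fell by 1.60 on the log2 scale. Fgfr2, an FGF receptor, fell by 1.92, and Axin2, a direct target of Wnt signalling, by 2.49 on the same scale. Targets and receptors of these pathways thus moved in both directions.

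**Figure D5:**
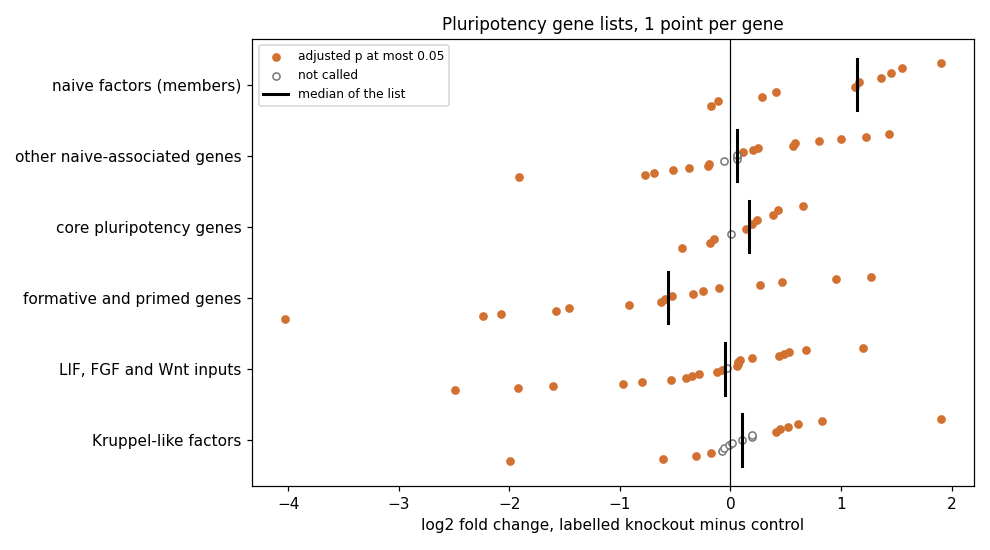
Log2 fold change of every tested gene in the lists (x axis), 1 row per list, with filled points for genes that passed, open points for the others and a bar at the list median. The members have a median of 1.15, the other naive-associated genes 0.06, the core genes 0.17 and the formative and primed genes -0.56.

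Of the 17 Klf genes tested, which include the members Klf2, Klf4 and Klf5, 6 rose, 4 fell and 7 did not pass, with a median of 0.11. Klf6, known from growth control and injury, fell by 2.00 on the log2 scale, from 99.5 to 24.9 cpm. Klf7 fell by 0.61 on that scale (-1.16 with the local offset) and Klf10, a TGF-beta induced factor, rose by 0.52. Of 14 relatives of the other members tested, 3 rose, 5 fell and 6 did not pass, with Tbx20 at -1.91, Prdm1 (Blimp1) at -0.81 and Prdm16 at 0.97.

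Markers of other cell types were measured in both groups and some moved with the label. Of 6 two-cell-like markers all fell, and their summed level went from 52.5 to 53.5 cpm in control clones to 2.23 to 2.64 cpm in the clones labelled knockout. Zscan4c, Zscan4d and Zscan4f (log2 fold changes of -4.93, -4.37 and -4.62) have near-identical copies. Fragments that hit several genes or places were discarded, so their counts and the summed level can be too low. Of 6 fibroblast feeder markers 5 fell, their summed level going from between 59.9 and 62.2 cpm to between 12.3 and 13.0 cpm, led by Col1a1 (log2 fold change -3.39). Lum, in that list, had 0 counts in every library. Neural progenitor markers (5 tested, 3 rose and 2 fell) summed to between 106 and 109.7 cpm in control clones and between 58.4 and 59.0 cpm in clones labelled knockout, with Nes, at 95.1 cpm in control and 19.0 cpm in clones labelled knockout, lower and Olig1 and Olig2 higher. Trophoblast markers (8 tested, 2 rose and 5 fell) summed to between 86.7 and 90.8 cpm and between 82.7 and 84.2 cpm. Most of that sum was Tfap2c, named after its values were seen, at 53.3 cpm in control and 70.6 cpm in clones labelled knockout. The median log2 fold change of the trophoblast list was -0.89, with Krt7 at -3.15, Hand1 at -3.15 and Gata3 at -1.48. Endoderm markers summed to between 11.7 and 13.0 cpm and between 10.7 and 12.9 cpm. Mesoderm markers summed to between 5.90 and 6.70 cpm and between 5.16 and 5.99 cpm. Beside these, the members summed to between 1313 and 1321 cpm and between 2758 and 2798 cpm. The part of these cell types in the members' change was not tested.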

How the data were processed

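The authors prepared stranded polyA libraries, removed rRNA reads, mapped the rest to mm10, counted fragments on GENCODE M4 by strand without those hitting several genes or places, and deposited raw counts per gene. The tools listed in the submitters' processing notes are CASAVA 1.8.2, TopHat2 2.0.10, Bowtie2 2.1.0 and HTSeq 0.6.1. The members and gene lists were chosen with earlier results of these data known. Genes that reached 10 counts in 1 or more libraries were retained, scaled by TMM and tested by the quasi-likelihood test of edgeR 4.0.16 (R 4.3.3), p-values being adjusted by Benjamini-Hochberg over all 16823 genes with a threshold of 0.05. DESeq2 1.42.0 was an alternative. FPKM used transcript lengths of GENCODE M21. The local offset used genes within 10 Mb with a mean of at least 10 counts. Named genes were the members, Zbtb24, Pou5f1, Sox2, Zfp42, protein-coding neighbours within 100 kb, and up to 4 genes of each list with the largest absolute log2 fold change among those that passed with a mean of at least 50 counts. Replicates are described as separate clones, and p-values measure the spread between their libraries. That spread was only 1.12 to 1.60 times sampling noise. Whether it holds the full variation between separately derived lines was not tested.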

Additional observations from a re-analysis of the deposited data

How the results depend on the processing

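Over 22 alternatives the 10 members gave 220 values, of which 192 kept direction and side of the threshold, 26 no longer passed and 2 changed sign. Both were Klf2, at 0.0045 with the offset by the local median, with or without a 2-fold threshold. All genes called were 11697, and all 10 members passed. With the dispersion fixed at 0.04 the counts were 4342 genes and 6 members, with 0.16 they were 1456 and 3, by glmTreat against a fold of 1.5 they were 3535 and 6, and when a 2-fold change was also required they were 2865 and 6. The offset together with that requirement, chosen after seeing the data, gave 2750 and 3. DESeq2 called 10326 genes and 9 members, without Dppa3. Scaling by library totals called 5047 genes higher and 6590 lower, against 5780 and 5917, and left 8 members higher and 2 lower. Leaving out each clone in turn called between 11059 and 11304 genes and 10 members each time. With a replicate block 11801 genes and 10 members passed. Same-numbered libraries had deviations correlated at 0.0062, 0.072 and 0.015. Deviations within a group were close to sampling noise, so these values cannot show whether replicate numbers pair the samples. The 3 clones per group limit every estimate of spread.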

Other observations

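Of 15 genes for cofactors and partners of the naive factors, 3 rose, 8 fell and 4 did not pass, with a median log2 fold change of -0.08. The 11 that passed compare with 69.5% of all genes tested. Mta1 and Mbd3, subunits of the NuRD complex that restrains naive genes, had log2 fold changes of -0.78 (SE 0.03) and -0.49 (SE 0.03), and -0.72 and -0.42 with the local offset. Chd4, the ATPase of that complex, did not pass without the offset (-0.03, adjusted p = 0.313 by edgeR's quasi-likelihood test) and stood at -0.59 with it, in the region around Nanog. Hdac1, a deacetylase of that complex, rose by 0.32, or 0.34 with the offset. Hdac2, another, had -0.08, and -0.04 with the offset, which did not pass. Chd4, Hdac1 and Hdac2 were named after their values were seen. The subunits thus did not move as one, and their part in the members' change was not tested. Tfe3, a bHLH factor that supports Esrrb, fell by 0.42 on the log2 scale. Ncoa2, a nuclear receptor coactivator, had 0.34, and -0.16 with the offset.

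Of 9 processed pseudogenes with at least 85% identity to a member over at least 200 bases, 4 were in the count table, and the other 5, among them all those of Klf4, Klf5 and Prdm14, were not analysed here. Dppa3-ps, 98.2% identical to Dppa3 over 451 bases, had 6, 2 and 3 counts in control clones and 2, 0 and 3 in clones labelled knockout. The 2 Nanog copies had at most 1 count in any library, and no pseudogene of Klf2, Tfcp2l1, Tbx3 or Nr0b1 met these limits. Olig1, an oligodendrocyte lineage factor, had 6, 9 and 15 counts in control clones and 499, 435 and 497 in clones labelled knockout.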
